A study of Mus musculus with 22 samples.

Results

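The genes described here are the potassium, sodium and calcium channel genes of the mouse, chosen as all rows of both deposited count matrices whose mouse gene symbol begins with Kcn, with Scn and a digit, with Cacn, or with Hcn and a digit from 1 to 4. The rule found 143 of 48709 genes, the same 143 in both matrices. By symbol they were 40 pore subunits of voltage-gated potassium (Kv) channels and 12 Kv auxiliary subunits, 15 inward rectifiers, 14 two-pore potassium channels, 12 subunits of calcium- or sodium-activated potassium channels, 10 pore and 4 beta subunits of sodium (Nav) channels, 10 pore, 4 beta, 4 alpha2delta and 8 gamma subunits of calcium (Cav) channels, and 4 Hcn genes. The other 6 are not channel subunits by name (Kcnq1ot1, Kcnrg and 4 opposite-strand transcripts). Inward rectifiers, two-pore channels and most calcium-activated channels are not gated by voltage in the way Kv, Nav and Cav channels are, so the common name voltage-gated does not hold for every member.

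Ventricles of mouse hearts at E13.5 were profiled by RNA-seq in 2 experiments with 3 libraries in each of 6 genotype groups, 18 libraries in all. All groups carried Nkx2.5-Cre, a Cre driver active in cardiac precursors and their descendants, on a C57/Bl6 background. Experiment 1 compared LIN9 wt with LIN9 KO ventricles, both with wild-type Sav1. Experiment 2 held controls (LIN9 wt and Sav1 wt), LIN9 KO with Sav1 wt, Sav1 KO with LIN9 wt, and the double knockout. LIN9 KO ventricles were Lin9 fl/fl with exon 7 between LoxP sites, and Sav1 KO ventricles were Sav1 fl/fl with exon 3 between LoxP sites. By the study's methods LIN9 wt embryos were Lin9 fl/+, whereas the labels name them wild-type. Whole ventricles also hold cells outside the Cre lineage, and the study describes its LIN9 KO and LIN9 wt ventricles as 2 biological replicates with triplicates in each. The 3 libraries of a group may thus be replicates of 1 source, and p-values measure the spread between these libraries, which may be technical. In such bulk RNA, fewer cells of a type and less RNA per cell cannot be told apart.

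LIN9 is a subunit of the MuvB complex, which binds promoters of cell cycle genes, and Sav1 is a scaffold of the Hippo kinase cascade, which restrains the coactivator YAP. Channel pore subunits form the path of the ions through the membrane, and beta, gamma, alpha2delta and other auxiliary subunits set where, how fast and at which voltage they open. In ventricular myocytes Nav channels carry the upstroke of the action potential, Cav channels its plateau and the trigger for contraction, Kv channels its repolarization, and inward rectifiers the resting potential.

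Total counts were 9485599 to 9615274 per library in experiment 1 and 2770741 to 2999877 in experiment 2. Levels are given as CPM, the count scaled by the TMM-normalized library size. Genes were tested by the quasi-likelihood test of edgeR, adjusted by Benjamini-Hochberg over all genes tested, with a threshold of 0.05. Lin9 fell in LIN9 KO ventricles of experiment 2 (26.8 ± 3.23 to 15.5 ± 2.38 CPM, adjusted p = 0.0027). It did not pass the test in experiment 1 (25.6 ± 4.19 against 20.6 ± 1.21 CPM, adjusted p = 0.13), nor in the double knockout against Sav1 KO (22.7 ± 3.85 against 25.4 ± 6.11 CPM, log2 fold change -0.16, adjusted p = 0.586). Sav1 read 57.5 ± 3.88 CPM in controls and 40.7 ± 3.98 CPM in Sav1 KO ventricles (adjusted p = 0.318). It was lower in the double knockout than in controls (log2 fold change -0.444, adjusted p = 0.00873). Against LIN9 KO the double knockout did not pass for Sav1 (log2 fold change -0.235, adjusted p = 0.464). The counts cover the whole gene, of which the knockout alleles lack 1 exon, and groups are named by their labels throughout. Of 9 cardiomyocyte markers tested, 5 were lower in LIN9 KO ventricles of each experiment, and their summed level was 16817 to 18457 CPM in LIN9 wt and 8893 to 13814 CPM in LIN9 KO libraries of experiment 1. Of 8 fibroblast and cushion mesenchyme markers, 7 were higher in each experiment, with sums of 2199.8 to 2525 and 4611 to 5049 CPM in experiment 1. The 8 erythroid markers tested were all higher, by medians of 3.05 and 2.84 on the log2 scale.

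Libraries of experiment 2 differed for members with long genes. For the 19 members with a gene span of at least 200 kb and a mean of at least 2 CPM in the controls of both experiments, the median log2 ratio to the control mean was -0.39 in control library 1 and -0.89 in LIN9 KO library 1, against 0.15 and 0.27 in the other controls and -0.22 and -0.09 in the other LIN9 KO libraries. For the 24 members under 50 kb it lay between -0.08 and 0.20 in these 6 libraries. The same long members were 0.42 higher (log2, median) in the controls of experiment 2 than in LIN9 wt of experiment 1, and the short ones differed by -0.02. Cacna1c, Kcnd2, Cacnb2 and Kcnip1 are among the long members.

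**Figure D1:**
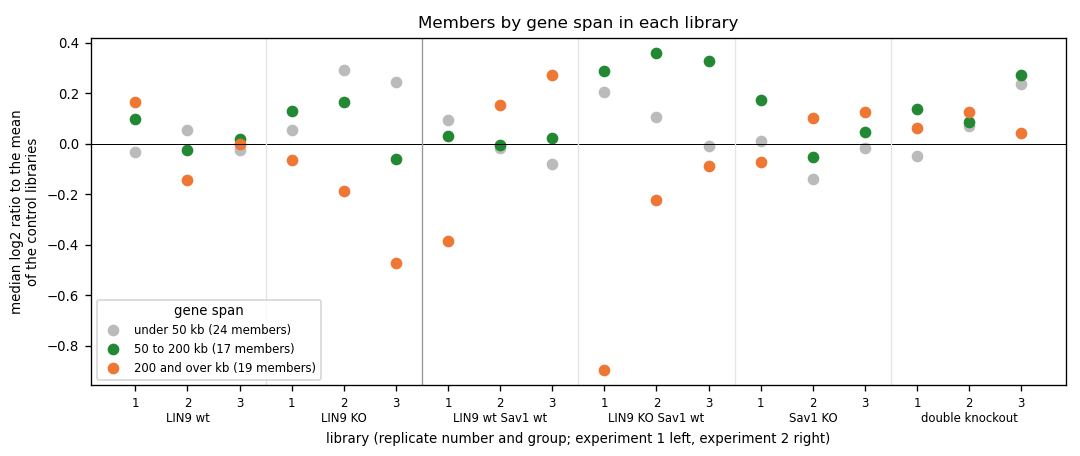
Median log2 ratio to the mean of the controls of the same experiment (vertical axis) for channel genes of 3 gene span classes, 1 point per library, by genotype group (horizontal axis). Control library 1 and LIN9 KO library 1 of experiment 2 lie at -0.39 and -0.89 for genes of 200 kb and over, and at 0.10 and 0.20 for genes under 50 kb.

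In ventricles labelled LIN9 KO, channel genes differed from LIN9 wt in both directions. In experiment 1, 44 of the 115 members tested passed the threshold (38.3%), 23 higher and 21 lower in LIN9 KO, against 20.9% of all 19752 genes tested. In experiment 2, 34 of 102 passed (33.3%), 22 higher and 12 lower, against 23.2% of 17675 genes. Without control library 1 and LIN9 KO library 1, in which long members were low, an alternative chosen after seeing the data, 37 of 103 passed in experiment 2, 22 higher and 15 lower, against 21.8% of all genes. Of 53 members singled out by the rule for named genes and tested both ways, 1 call was then lost (Scn4a, log2 fold change 1.67, adjusted p = 0.184) and 3 were gained (Cacna2d1 and Cacnb2 lower at -0.48 and -0.61, Kcnq3 higher at 1.01). In the double knockout against Sav1 KO, a comparison with no library in common with the other two, 32 of 102 passed (31.4%), 19 higher and 13 lower, against 23.4%. With 1 library left out, the higher and lower members of experiment 1 numbered 13 and 18 without LIN9 wt library 3, 14 and 17 without LIN9 wt library 1, and 16 and 20 without LIN9 KO library 2, and DESeq2 gave 18 and 20. In experiment 2 they numbered 13 and 9 without LIN9 KO library 2 and 16 and 8 without control library 2. In the third comparison they numbered 10 and 13 without double knockout library 2, 12 and 12 without Sav1 KO library 1, and 12 and 11 without Sav1 KO library 2. The median log2 fold change of the members tested was 0.20, 0.33 and 0.44 in these comparisons, and that of all genes 0.02, 0.01 and 0.03. The first of these was 0.10 without LIN9 wt library 2 and 0.13 without LIN9 KO library 1. The groups did not overlap for 44, 31 and 32 of the members that passed (100%, 91.2% and 100%), near the 98.7%, 94.4% and 97.3% of all genes that passed.

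Lower and higher members were counted by level. Among members of at least 10 CPM, 12 fell and 7 rose of 34 tested in experiment 1, and among those of 1 to 10 CPM, 9 fell and 15 rose of 51. For LIN9 KO against control in experiment 2, 8 fell and 9 rose of 37 at 10 CPM or more, and 4 fell and 13 rose of 51 at 1 to 10 CPM. The double knockout against Sav1 KO gave 9 lower and 7 higher of 37 and 4 lower and 12 higher of 51. Of all genes, 27.8% of those at 10 CPM or more and 20.8% of those at 1 to 10 CPM passed in experiment 1, against 55.9% and 47.1% of the members at these levels. In experiment 2, 45.9% and 33.3% of the members at these levels passed, against 31.1% and 13.8% of all genes, and in the third comparison 43.2% and 31.4%, against 31.3% and 14%. The summed level of all members was 2054 ± 87.5 CPM in LIN9 wt and 1718 ± 154 CPM in LIN9 KO ventricles of experiment 1, and 2467 ± 196 and 2309 ± 405 CPM in experiment 2, where the groups overlapped.

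The 2 experiments share no library. Of the 102 members tested in both, 11 were lower in both (52.4% of the 21 lower in experiment 1, 91.7% of the 12 lower in experiment 2) and 13 were higher in both (56.5% of 23 and 59.1% of 22), and 0 passed in opposite directions. Of all 17656 genes tested in both, the shares were 62.4% and 64.6% of the lower and 66% and 63.3% of the higher ones, and 0 passed in opposite directions, so that passing in both was common among all genes. Among the lower members were Cacng6, Kcna4, Kcnc2, Kcnd2, Kcnd3, Kcng2, Kcnh2, Kcnj8, Kcnn2 and Kcnq1. The higher members included Cacna1e, Cacnb3, Cacng7, Kcna7, Kcne1l, Kcnj2, Kcnk1, Kcnk5, Kcnt2, Scn3b and Scn4a. In the double knockout against Sav1 KO, 8 of these 11 were lower and 10 of these 13 higher, beside 81.7% and 80.1% of all genes that were lower or higher in both. The exceptions were Kcnd3, Kcnj8 and Kcnn2 among the lower and Cacnb3, Kcna7 and Scn4a among the higher members, all with the same sign of fold change and adjusted p over 0.05. For members singled out by the rule for named genes and described below, calls lost in a fit that left out 1 library are marked. That library is named with the log2 fold changes of such fits in parentheses.

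Other alternatives also lost calls of members described here. DESeq2, a count test with its own normalization, did not call Kcna7, Kcnk1 and Scn4a in experiment 1, Kcng2, Kcnj5, Kcnj8, Kcnk1 and Kcnk5 in experiment 2, and Kcnk1 and Kcnmb2 in the double knockout against Sav1 KO, with adjusted p from 0.0655 to 0.162 and the same direction in each. It gave no adjusted p for Scn4a in experiment 2 and for Kcnh3 in both comparisons of experiment 2. A fit of only the 6 libraries of both groups did not call Kcnd2, Kcng2, Kcnk1 and Kcnt2 in experiment 2 (adjusted p from 0.0598 to 0.183). Without the filter on low counts, Kcnk1 was not called in experiment 2 (adjusted p = 0.0634).

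**Figure D2:**
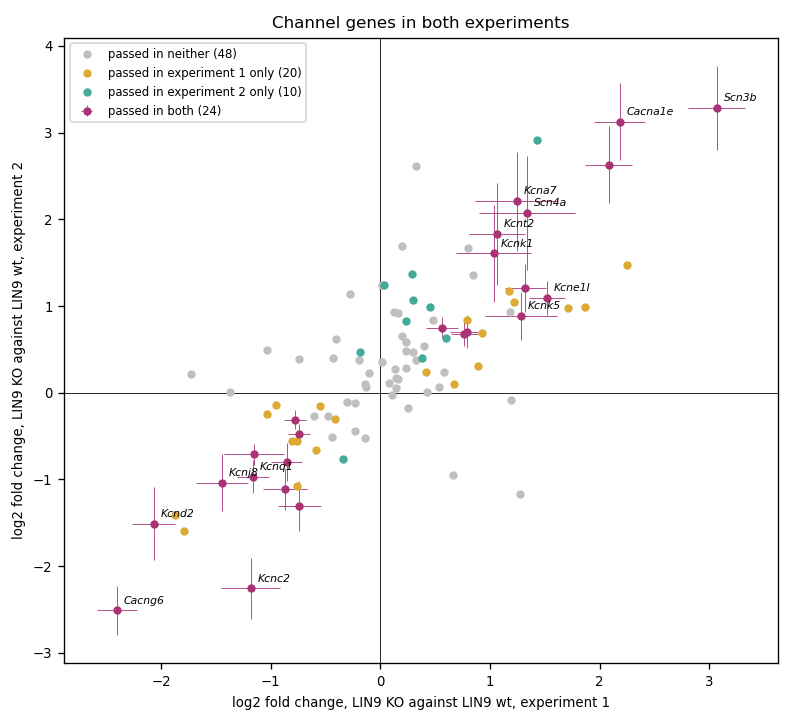
Log2 fold change of LIN9 KO against LIN9 wt for the 102 channel genes tested in both experiments, experiment 1 on the horizontal and experiment 2 on the vertical axis, coloured by where the adjusted p was under 0.05, with standard errors for the 24 genes past it in both. These 24 genes lie in the lower left (11 genes) and upper right (13 genes) quadrants, 20 passed in experiment 1 only, 10 in experiment 2 only and 48 in neither.

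Cell type markers moved with these members. In LIN9 wt ventricles of experiment 1 the 11 lower members had a median of 19.2 CPM and the 13 higher members one of 3.2 CPM. The 11 lower members had a median log2 fold change of -1.15 in experiment 1 and -1.04 in experiment 2, where the cardiomyocyte markers had medians of -0.72 in both and the ventricular markers, 5 of 5 lower, -1.09 and -1.10. The lower and higher members were chosen by passing for LIN9 KO against LIN9 wt in both experiments, whereas the marker lists also hold markers that did not pass. Where the members lie beside the marker medians there is thus partly set by the choice. The third comparison, the double knockout against Sav1 KO, did not choose these members. There the median of the 11 lower members was -0.85, beside -0.73 for the cardiomyocyte and -1.06 for the ventricular markers. Of the 11, 7 and 4 lay below these marker medians. The 13 higher members had medians of 1.28 and 1.61, beside 0.96 and 1.03 for the epicardial, 1.08 and 1.02 for the fibroblast and cushion mesenchyme and 1.02 and 0.83 for the macrophage markers. The double knockout against Sav1 KO gave 1.06 for these members, 5 of 13 of them above the macrophage median of 1.44. The epicardial median was 0.86 and the fibroblast and cushion mesenchyme median 0.92 there, with 9 of the 13 above each. Of 5 neural crest, glia and neuron markers tested, 0 passed in experiment 1 and 1 in experiment 2, where it was lower, and their summed level was 14.1 to 28.4 CPM over all libraries. Actc1, Tubb3, Alas2 and Myf5 among the markers were at 0 throughout. The part of cell composition in these changes was not tested.

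The promoters of members that moved together are shown as RefSeq gives them (GRCm38.p6), each 250 bases up to the base before the RefSeq transcript start and written 5′ to 3′ on the strand of the gene. They were searched on both strands for the cell cycle homology region (CHR) core TTTGAA, the element bound by MuvB through its subunit LIN54, and for GGAATG, the core of the element bound by TEAD factors, the DNA-binding partners of YAP. The letters of the 2 motifs do not overlap each other in these windows. Matches are in capitals, as TTTGAA or TTCAAA and as GGAATG or CATTCC. The windows of Cacng6 at chr7:3424412-3424661 (plus strand) and Kcnd2 at chr6:21215096-21215345 (plus strand), both lower in LIN9 KO, were the windows of lower members with a CHR match, and Cacng6 also held the other motif.
Cacng6: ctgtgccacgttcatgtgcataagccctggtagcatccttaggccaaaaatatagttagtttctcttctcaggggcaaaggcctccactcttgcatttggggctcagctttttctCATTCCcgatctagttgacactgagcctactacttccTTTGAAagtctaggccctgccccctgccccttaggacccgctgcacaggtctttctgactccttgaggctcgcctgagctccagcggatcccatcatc
Kcnd2: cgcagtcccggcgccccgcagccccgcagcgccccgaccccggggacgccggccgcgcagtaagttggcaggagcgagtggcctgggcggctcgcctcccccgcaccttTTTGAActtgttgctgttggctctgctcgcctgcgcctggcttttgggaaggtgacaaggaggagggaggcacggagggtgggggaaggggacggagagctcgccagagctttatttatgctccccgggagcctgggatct
The windows of Cacna1e at chr1:154725921-154726170 (minus strand), Cacng7 at chr7:3332575-3332824 (plus strand) and Kcne1l at chrX:142306199-142306448 (minus strand) are those of higher members with a GGAATG match and serve as the comparison.
Cacna1e: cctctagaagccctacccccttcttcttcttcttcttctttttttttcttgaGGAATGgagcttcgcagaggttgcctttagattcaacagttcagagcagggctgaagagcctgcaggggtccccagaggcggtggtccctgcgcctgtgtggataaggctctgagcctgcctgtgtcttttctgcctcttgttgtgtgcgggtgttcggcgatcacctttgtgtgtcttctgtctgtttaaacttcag
Cacng7: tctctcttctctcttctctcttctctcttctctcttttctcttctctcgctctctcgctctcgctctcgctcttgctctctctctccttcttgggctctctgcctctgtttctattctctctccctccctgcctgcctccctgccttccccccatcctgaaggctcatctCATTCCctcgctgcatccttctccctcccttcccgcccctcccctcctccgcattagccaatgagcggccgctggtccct
Kcne1l: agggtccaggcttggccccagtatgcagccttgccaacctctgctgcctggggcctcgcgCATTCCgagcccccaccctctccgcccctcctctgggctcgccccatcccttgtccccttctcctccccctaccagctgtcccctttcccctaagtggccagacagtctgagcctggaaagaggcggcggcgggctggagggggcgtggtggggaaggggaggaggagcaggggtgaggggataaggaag
Over all 32851 windows of 27025 genes, 16.0% held the CHR core and 12.6% held GGAATG. Windows were found for 103 of the 143 members, 138 windows in all, of which 8.7% and 15.9% held these letters. The CHR core was in 2 of 10 windows of the lower members (7 of 11 genes had a window) and in 0 of 11 windows of the higher members (10 of 13 genes). GGAATG was in 1 of the 10 and in 4 of the 11, the fourth being the window of Kcnk1. By the GENCODE positions, the windows of Cacng6 (gene at chr7:3424195-3435667) and Cacna1e (gene at chr1:154390731-154884501) lie wholly within the spans of these genes. The window of Kcne1l lies partly within its gene. These windows are thus not upstream of the outermost annotated start. A match is a description of these letters and does not show binding.

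Sodium channel genes differed among themselves. Scn3b, a beta subunit, one of the small membrane proteins that modulate Nav gating (mm10 chr9:40269217-40291618), rose in all 3 LIN9 comparisons. It read 1.24, 0.738 and 1.25 CPM in LIN9 wt and 7.59, 9.12 and 10.6 CPM in LIN9 KO libraries of experiment 1, and 0.665, 1.37 and 0.692 CPM in controls and 8.54, 10.8 and 8.2 CPM in LIN9 KO libraries of experiment 2. Sav1 KO libraries read 1.35, 0.338 and 2.73 CPM and double knockouts 7.16, 16.6 and 9.96 CPM. The lowest library labelled LIN9 KO or double knockout was above the highest of the others in both experiments (standard error 0.259 and adjusted p = 2.16e-06 for a log2 fold change of 3.07 in experiment 1, and 3.28 and 2.90 in the comparisons of experiment 2). Scn4b, another beta subunit, read 0.765 and 0.565 CPM in experiment 1 and did not pass in any LIN9 comparison.

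Among Nav pores, Scn4a, the skeletal muscle channel Nav1.4, rose from 0.451 ± 0.0557 to 1.16 ± 0.278 CPM in experiment 1 and from 0.456 ± 0.205 to 2.03 ± 0.572 CPM in experiment 2. This call was lost in experiment 1 without LIN9 wt library 1 or 2 or 3 or LIN9 KO library 1 or 3 (1.22 to 1.44) and in experiment 2 without control library 1 or 2 or LIN9 KO library 1 or 2 (1.83 to 2.07). Beside it, the summed level of the skeletal muscle markers was 84.6 to 152 CPM in LIN9 wt and 36.3 to 69.1 CPM in LIN9 KO libraries of experiment 1. Of 6 such markers tested in experiment 1, 2 were higher and 1 lower (median log2 fold change -0.53). Of 4 tested in experiment 2, 1 was higher and 1 lower (median 0.75). The part of these markers in the Scn4a result was not tested. Scn10a, which encodes Nav1.8, a channel known from sensory neurons, rose in experiment 2 (3.32, 2.74 and 3.11 CPM in controls, 7.89, 7.54 and 8.57 CPM in LIN9 KO, log2 fold change 1.37, standard error 0.341, adjusted p = 0.00355). In experiment 1 its values were 4.89 ± 0.498 and 5.98 ± 1.58 CPM (adjusted p = 0.413), and in the double knockout against Sav1 KO its log2 fold change was 0.44 (adjusted p = 0.327).

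**Figure D3:**
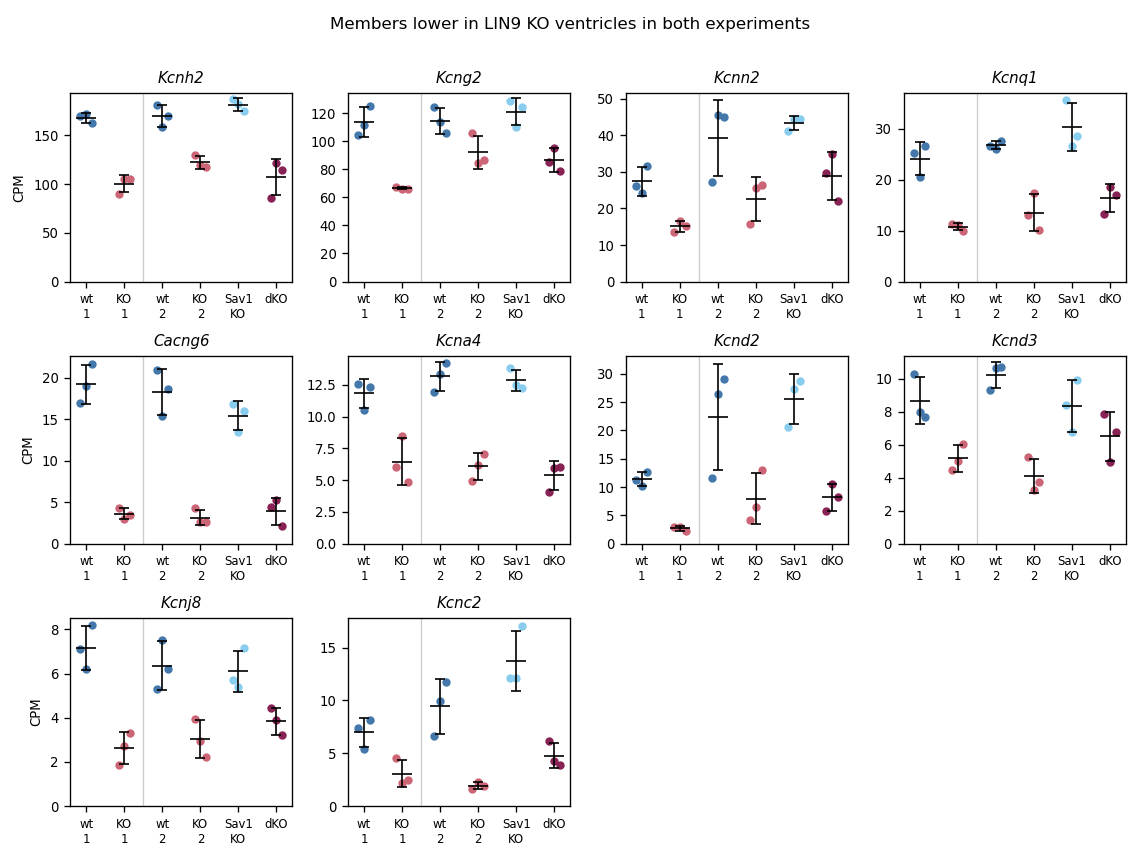
Level in CPM (vertical axes) of 10 channel genes that were lower in LIN9 KO ventricles in both experiments, 1 point per library, by genotype group on the horizontal axis (wt and KO stand for LIN9 wt and LIN9 KO with the number of the experiment, dKO for the double knockout), with bars for the mean ± SD of 3 libraries. The Kcnh2 points lie between 86.2 and 130.1 CPM in the LIN9 KO and double knockout groups and between 159 and 188 CPM in the others.

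Calcium channels fell and rose by subunit. The gamma subunits Cacng6, a skeletal muscle type subunit, and Cacng7, of the group that also regulates glutamate receptors, lie with Cacng8 between them on chromosome 7, 22.5 and 8.55 kb apart. Cacng6 (mm10 chr7:3424195-3435667) read 17, 19 and 21.7 CPM in LIN9 wt and 4.34, 3.04 and 3.5 CPM in LIN9 KO libraries of experiment 1. In experiment 2 it read 20.9, 15.4 and 18.7 CPM in controls, 4.27, 2.62 and 2.61 CPM in LIN9 KO, 16.8, 13.51 and 16 CPM in Sav1 KO and 4.43, 5.28 and 2.13 CPM in double knockout libraries. It was the member with the most negative fold change that passed in both experiments (log2 fold change -2.40, standard error 0.182, adjusted p = 8.31e-07 in experiment 1, log2 fold change -2.51, standard error 0.283, adjusted p = 1.38e-07 in experiment 2), and in the double knockout against Sav1 KO its log2 fold change was -1.95 (adjusted p = 5.83e-06). Cacng7 (mm10 chr7:3332955-3368221) moved the other way, with 14.2, 12.8 and 11.4 CPM in LIN9 wt and 24.9, 17.2 and 24.5 CPM in LIN9 KO libraries of experiment 1, and 13.6, 13 and 11.1 CPM and 20.7, 20.7 and 20.1 CPM in the same groups of experiment 2. Its groups did not overlap in either experiment (log2 fold change 0.79, adjusted p = 0.00255, and 0.70, adjusted p = 0.00641). The third LIN9 comparison gave 0.68 (adjusted p = 0.00814), a call lost without Sav1 KO library 3 or double knockout library 2 (0.56 to 0.59). Cacng8 passed in experiment 1 only, from 0.622 ± 0.446 to 2.06 ± 0.631 CPM, a call lost without LIN9 wt library 2 or 3 (1.40 to 1.49).

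Among Cav pores, Cacna1e, which encodes the R-type channel Cav2.3 known from neurons and endocrine cells, rose. It read 5.25, 3.16 and 2.6 CPM in LIN9 wt and 20.5, 15.5 and 14.2 CPM in LIN9 KO libraries of experiment 1. Experiment 2 gave 2.0, 1.37 and 3.11 CPM in controls, 7.89, 24.6 and 25.4 CPM in LIN9 KO, 4.04, 2.03 and 2.39 CPM in Sav1 KO and 18.4, 18 and 17.8 CPM in double knockout libraries. LIN9 KO library 1 of experiment 2 was the lowest of its group at 7.89 CPM and still above every control and Sav1 KO library. The log2 fold changes were 2.18, 3.13 and 2.66, with adjusted p of 2.36e-05, 9.28e-05 and 2.90e-04. Cacna1c, which encodes the L-type pore Cav1.2 of the cardiac plateau current, had the highest CPM of the Cav pores in all groups. It read 346, 254 and 315 CPM in LIN9 wt and 188, 191 and 159.7 CPM in LIN9 KO libraries of experiment 1, without overlap (log2 fold change -0.77, standard error 0.127, adjusted p = 5.57e-04). In experiment 2 the LIN9 KO values of 215, 254 and 398 CPM overlapped the controls at 352, 451 and 475 CPM, and the log2 fold change was -0.56 (adjusted p = 0.125). It was -0.17 (adjusted p = 0.671) in the double knockout against Sav1 KO.

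The auxiliary subunit Cacnb2, the main cardiac beta subunit, followed the same pattern, with 78.8 ± 5.61 and 52.5 ± 5.13 CPM in experiment 1 (log2 fold change -0.59, standard error 0.106, adjusted p = 0.00108) and 126 ± 27.6 and 80 ± 32.2 CPM in experiment 2 (adjusted p = 0.116). Cacnb3, another beta subunit, rose from 22.5 ± 1.27 to 38.2 ± 5.57 CPM and from 24.8 ± 1.34 to 39.8 ± 1.29 CPM (adjusted p = 4.99e-04 and 4.64e-04). Against Sav1 KO the double knockout gave it an adjusted p of 0.0772 at a log2 fold change of 0.34. The T-type pore Cacna1h rose in experiment 2, from 150.0 ± 4.64 to 207 ± 33.9 CPM (adjusted p = 0.00706), a call lost without LIN9 KO library 2 (0.31), and read 149 ± 25.8 and 131 ± 18.9 CPM in experiment 1. The L-type pore Cacna1d, the T-type pore Cacna1g and the alpha2delta subunit Cacna2d1 did not pass in any LIN9 comparison, with means of 39.5, 45.1 and 99.8 CPM in LIN9 wt and 42.5, 49.6 and 85 CPM in LIN9 KO ventricles of experiment 1. Of the 4 alpha2delta genes, 0 passed in experiment 1 and 1 in experiment 2 (Cacna2d2, higher).

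**Figure D4:**
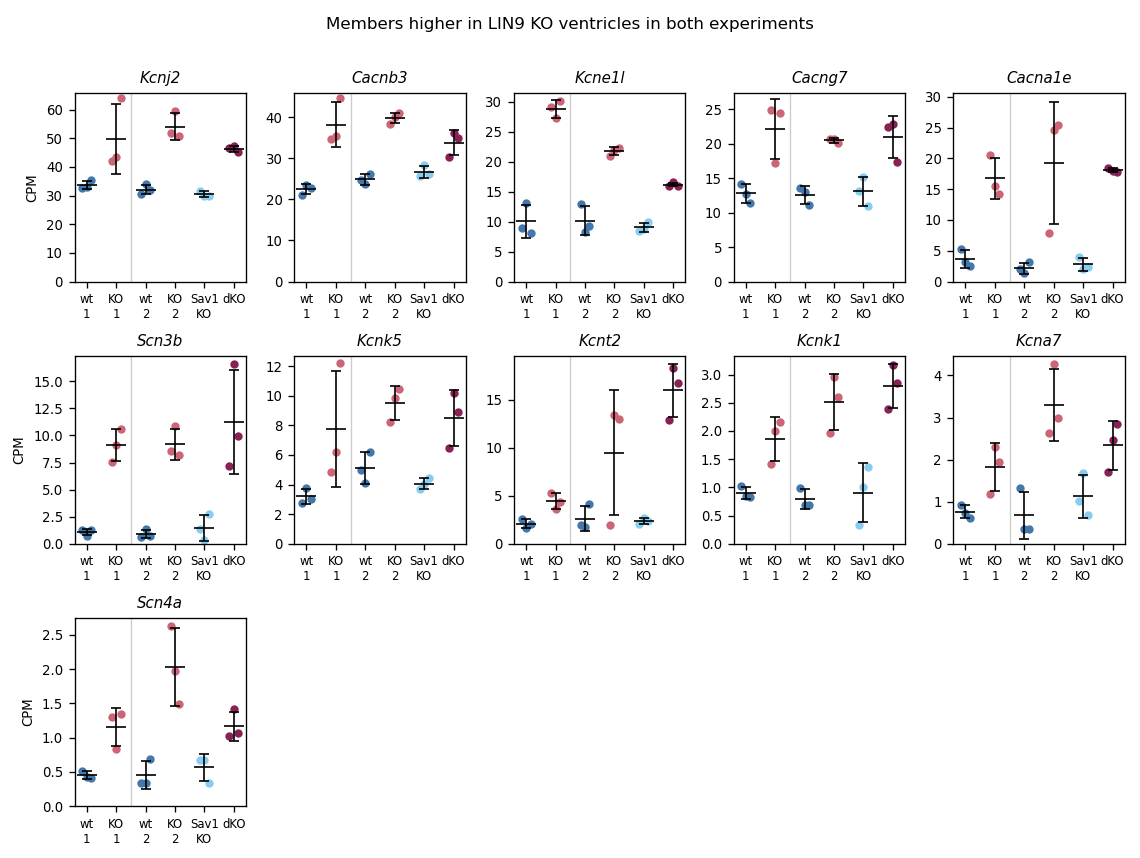
Level in CPM (vertical axes) of 11 channel genes that were higher in LIN9 KO ventricles in both experiments, 1 point per library, by genotype group on the horizontal axis, with the group names of the plot of lower genes and bars for the mean ± SD of 3 libraries. The Scn3b points lie between 0.338 and 2.73 CPM in the LIN9 wt, control and Sav1 KO groups and between 7.16 and 16.6 CPM in the LIN9 KO and double knockout groups.

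Hcn4, the main pacemaker channel of the sinus node and of early myocardium, read 24, 33.3 and 19.5 CPM in LIN9 wt and 17.8, 30.9 and 16.9 CPM in LIN9 KO libraries of experiment 1, and 31.6, 26 and 24.2 CPM and 28.6, 22.3 and 24.2 CPM in those of experiment 2. The groups overlapped in both, and the log2 fold changes were -0.23 and -0.12 (adjusted p = 0.647 and 0.666). Hcn2, another pacemaker channel, read 0.761 and 0.873 CPM in experiment 1 and 0.570 and 1.91 CPM in experiment 2, and did not pass. Beside these, 2 of 6 conduction and pacemaker markers were higher and 2 lower in experiment 1, and 1 was lower in experiment 2.

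The Kv pores held 9 of the 21 lower members in experiment 1 and 7 of the 12 in experiment 2. Of 33 tested in experiment 1, 9 were lower and 6 higher, of 28 in experiment 2, 7 were lower and 4 higher, and of 28 in the double knockout against Sav1 KO, 6 were lower and 5 higher. The median log2 fold change of the Kv pores tested was above 0 in each (0.39, 0.07 and 0.26). Of all genes, 9.78% were lower and 11.1% higher in experiment 1 and 10.5% and 12.8% in experiment 2, and 11.6% and 11.8% in the third comparison. The summed level of the Kv pores was 456 ± 5.14 CPM in LIN9 wt and 328 ± 14.99 CPM in LIN9 KO ventricles of experiment 1 and 539 ± 46.1 and 426 ± 45.2 CPM in experiment 2. Both sums were without overlap between the groups.

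Kcnh2, which encodes the hERG channel of the rapid delayed rectifier current, had the highest CPM of the Kv pores in LIN9 wt ventricles. It read 169.8, 172 and 163 CPM in LIN9 wt and 90.2, 105 and 106 CPM in LIN9 KO libraries of experiment 1. The second experiment gave 182, 159 and 169 CPM in controls, 130.1, 119 and 118 CPM in LIN9 KO, 188, 182 and 175 CPM in Sav1 KO and 86.2, 122 and 115 CPM in double knockout libraries. No LIN9 KO or double knockout library reached the level of any other library in the same experiment. The log2 fold changes were -0.74, -0.47 and -0.76 (adjusted p = 1.25e-04, 0.00200 and 8.08e-06). Kcnq1, the pore of the slow delayed rectifier current, read 25.3, 20.4 and 26.6 CPM in LIN9 wt and 11.4, 11 and 9.97 CPM in LIN9 KO libraries of experiment 1, and 26.6, 26 and 27.7 CPM and 13.1, 17.4 and 10.1 CPM in experiment 2. It fell without overlap in both (log2 fold change -1.16, standard error 0.145, adjusted p = 5.67e-05 in experiment 1, log2 fold change -0.97, standard error 0.191, adjusted p = 3.44e-04 in experiment 2) and by 0.89 on the log2 scale in the double knockout against Sav1 KO. The transcript Kcnq1ot1, antisense to Kcnq1, was at 0 in all 18 libraries and lies within the span of Kcnq1, and the strandedness of the counting is not stated.

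Kcnd2 and Kcnd3 encode pores of the transient outward current. Kcnd2 read 11.2, 10.2 and 12.7 CPM in LIN9 wt and 2.93, 2.94 and 2.26 CPM in LIN9 KO libraries of experiment 1, where it fell by 2.07 on the log2 scale (adjusted p = 6.22e-06). In experiment 2 it read 11.6, 26.4 and 29.1 CPM in controls, 4.27, 6.56 and 13 CPM in LIN9 KO, 20.5, 27.4 and 28.7 CPM in Sav1 KO and 5.79, 10.6 and 8.18 CPM in double knockout libraries. Control library 1 was low and LIN9 KO library 3 high within their groups, so that these overlapped (log2 fold change -1.51, standard error 0.422, adjusted p = 0.0251). Without control library 1 and LIN9 KO library 1 together it was -1.52 (adjusted p = 1.46e-05). The call on all libraries was lost without control library 2 or 3 or LIN9 KO library 1 or 2 (-1.42 to -1.22), and the call of the double knockout against Sav1 KO (-1.64) without Sav1 KO library 3 or double knockout library 1 or 3 (-1.66 to -1.47). Kcnd3 fell from 8.67 ± 1.42 to 5.18 ± 0.821 CPM and from 10.2 ± 0.789 to 4.09 ± 1.04 CPM (adjusted p = 0.0137 and 0.00103), a call lost in experiment 1 without LIN9 wt library 1 or LIN9 KO library 1 (-0.64 to -0.60). Its log2 fold change in the double knockout against Sav1 KO was -0.35 (adjusted p = 0.378).

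The pore genes Kcna4, a Shaker type subunit that also forms transient outward channels, and Kcnc2, a Shaw type subunit, fell in all 3 LIN9 comparisons. Kcna4 read 11.8 ± 1.12 and 6.47 ± 1.86 CPM in experiment 1 and 13.2 ± 1.12 and 6.08 ± 1.08 CPM in experiment 2, with log2 fold changes of -0.87, -1.12 and -1.26. Kcnc2 read 6.96 ± 1.42 and 3.08 ± 1.29 CPM and 9.45 ± 2.59 and 1.94 ± 0.332 CPM, with -1.18, -2.26 and -1.52. Kcng2, an electrically silent subunit that modifies Kv2 pores, had the highest CPM per exonic kilobase of all members in LIN9 wt ventricles of experiment 1 (38, against 34.7 for Kcnh2, with the limit that reads in introns may count). Its level fell from 114 ± 10.7 to 66.4 ± 0.747 CPM and from 114 ± 9.29 to 92.1 ± 11.7 CPM (adjusted p = 8.08e-05 and 0.0453), a call lost in experiment 2 without control library 1 or 2 or LIN9 KO library 2 or 3 (-0.35 to -0.27). It also fell by 0.49 on the log2 scale in the double knockout against Sav1 KO (adjusted p = 0.00201). Kcng1, another silent subunit, fell in experiment 1 from 1.74 ± 0.336 to 0.488 ± 0.495 CPM, a call lost without LIN9 wt library 1 or 2 or LIN9 KO library 1 (-1.83 to -1.34).

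Among Kv pores that rose was Kcna7, a Shaker type subunit. It was at 0.763 and 1.82 CPM in experiment 1 and 0.673 and 3.29 CPM in experiment 2 and rose in both, a call lost in experiment 1 without LIN9 wt library 1 or 2 or 3 or LIN9 KO library 2 or 3 (1.04 to 1.40).

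The Kv pores named next did not pass in both experiments for LIN9 KO against LIN9 wt. The atrial repolarization channel Kcna5 rose in experiment 1, from 9.63 ± 2.83 to 15.4 ± 3.5 CPM, a call lost without LIN9 wt library 1 or 3 or LIN9 KO library 2 (0.47 to 0.66), and read 11.8 ± 3.4 and 12.6 ± 1.91 CPM in experiment 2. Kcnh3, an ether-a-go-go family pore known from the brain, rose in experiment 2 (0.343 to 2.84 CPM), a call lost without LIN9 KO library 2 (2.56), and in the double knockout against Sav1 KO (from 0.112 to 1.27 CPM), a call lost without Sav1 KO library 2 or 3 or double knockout library 1 or 2 (2.55 to 3.00). Kcnq3, a pore of the neuronal M-current, rose in that last comparison, from 5.98 ± 0.743 to 18.1 ± 3.28 CPM, a call lost without Sav1 KO library 1 or 2 or 3 or double knockout library 2 or 3 (1.49 to 1.64).

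Of the Kv auxiliary subunits, Kcne1l, which is encoded on the X chromosome and belongs to the single-pass KCNE family, rose. It read 8.86, 13.2 and 8.1 CPM in LIN9 wt and 29.1, 27.3 and 30.1 CPM in LIN9 KO libraries of experiment 1. Experiment 2 gave 13, 8.22 and 9.34 CPM in controls, 21, 22 and 22.4 CPM in LIN9 KO, 8.41, 8.78 and 9.89 CPM in Sav1 KO and 16, 16.6 and 16 CPM in double knockout libraries. All LIN9 KO and double knockout libraries were above all others of their experiment (adjusted p = 1.76e-05 for a log2 fold change of 1.52 in experiment 1, and 1.09 and 0.84 in the comparisons of experiment 2). Kcne1, the KCNE subunit that joins Kcnq1 in the slow delayed rectifier, fell in experiment 1 from 63.1 ± 2.1 to 47.5 ± 6.13 CPM (adjusted p = 0.0139), a call lost without LIN9 wt library 1 or 3 or LIN9 KO library 1 or 2 (-0.40 to -0.35). It fell in the double knockout against Sav1 KO by 0.54 on the log2 scale (adjusted p = 0.0145), a call lost without Sav1 KO library 2 or double knockout library 3 (-0.44 to -0.38), and read 56.9 ± 2.01 and 46 ± 9.34 CPM in experiment 2 (adjusted p = 0.187). Kcnip2, the partner of Kcnd pores in adult ventricle, was at 1.91 and 1.43 CPM in experiment 1 and did not pass. Kcnip1, another Kcnd partner, was chosen for mention after its values were seen. It read 18.4, 17.4 and 393 CPM in the LIN9 KO libraries of experiment 2, 79.8, 100.04 and 121 CPM in the controls and 18.4, 32.6 and 8.83 CPM in LIN9 wt of experiment 1, and did not pass in any LIN9 comparison.

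**Figure D5:**
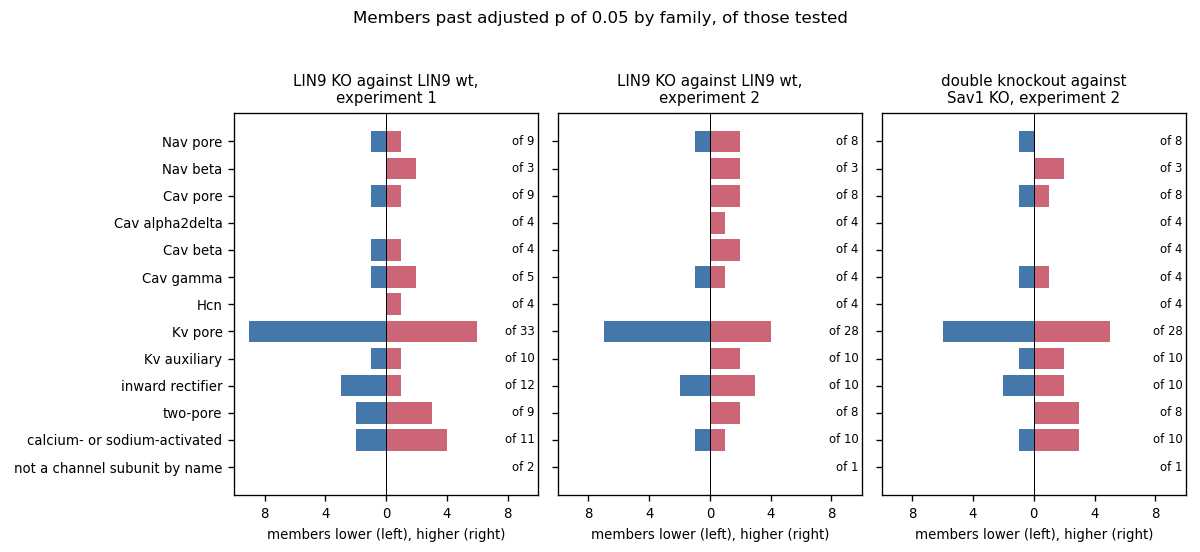
Number of channel genes per family (vertical axis) that were lower (left of 0) or higher (right of 0) in LIN9 KO at an adjusted p under 0.05, in experiment 1, in experiment 2 and in the double knockout against Sav1 KO. In experiment 1 the Kv pores held 9 of the 21 lower genes.

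Inward rectifiers moved in both directions within the family. Kcnj2, the main pore of the ventricular resting current IK1 (Kir2.1), rose. It read 32.8, 33.1 and 35.3 CPM in LIN9 wt and 42.1, 43.5 and 64 CPM in LIN9 KO libraries of experiment 1. The second experiment gave 30.6, 33.9 and 31.8 CPM in controls, 51.9, 59.4 and 50.7 CPM in LIN9 KO, 31.6, 29.7 and 30 CPM in Sav1 KO and 46.7, 47.2 and 45.2 CPM in double knockout libraries. The groups did not overlap, and the log2 fold changes were 0.56, 0.75 and 0.61 (adjusted p = 0.0136, 4.56e-05 and 7.75e-04). The call in experiment 1 was lost without LIN9 wt library 1 or 2 (0.54 to 0.55).

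Kcnj12, a second pore of IK1 (Kir2.2), fell in experiment 1 from 8.5 ± 0.216 to 4.4 ± 0.547 CPM (adjusted p = 0.00167) and in the double knockout against Sav1 KO from 10.1 ± 2.0 to 4.79 ± 1.42 CPM (adjusted p = 0.00632). In experiment 2 it read 6.79 ± 1.59 and 6.15 ± 0.992 CPM (adjusted p = 0.787). Kcnj11, the pore of the ATP-sensitive channel of muscle, read 37.6, 38.2 and 36.3 CPM in LIN9 wt and 14.5, 25.8 and 14.2 CPM in LIN9 KO ventricles of experiment 1 (log2 fold change -1.04, standard error 0.198, adjusted p = 0.00354), and 38.2, 33.9 and 31.1 CPM and 27.9, 31.8 and 27.2 CPM in experiment 2 (adjusted p = 0.562). The third LIN9 comparison gave -1.004 (adjusted p = 0.0150), a call lost without Sav1 KO library 1 or 3 (-0.95 to -0.94). Kcnj8, the ATP-sensitive pore of smooth muscle and pericytes, fell from 7.18 ± 0.996 to 2.62 ± 0.730 CPM and from 6.36 ± 1.11 to 3.04 ± 0.857 CPM (adjusted p = 4.62e-04 and 0.0208), a call lost in experiment 2 without control library 2 or LIN9 KO library 2 or 3 (-1.04 to -0.90). Beside it, 2 of 6 smooth muscle and pericyte markers were higher and 1 lower in experiment 1, and 2 higher and 2 lower in experiment 2.

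Kcnj3 and Kcnj5 encode the pores of the acetylcholine-activated channel. Kcnj5 rose in experiment 2 from 78.5 ± 5.59 to 103 ± 12.5 CPM (adjusted p = 0.0221), a call lost without control library 2 or 3 or LIN9 KO library 2 or 3 (0.27 to 0.39), and read 71.2, 97.1 and 70.3 CPM and 80.1, 141 and 89.9 CPM in experiment 1, where the groups overlapped. Kcnj3 read 19.1 ± 4.68 and 13.7 ± 9.39 CPM in experiment 1 and did not pass in any LIN9 comparison. Beside these genes, 1 of 7 atrial markers was higher in experiment 1 and 2 in experiment 2, with sums of 952 to 1625 CPM in LIN9 wt and 1972 to 2857 CPM in LIN9 KO libraries of experiment 1.

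Among two-pore channels, which carry background potassium current, Kcnk3 (TASK-1) held 75.7% of the family's summed level in LIN9 wt ventricles of experiment 1. It fell there from 86.2 ± 11.7 to 59 ± 7.77 CPM (log2 fold change -0.55, standard error 0.123, adjusted p = 0.00493) and read 81.6 ± 4.01 and 73.3 ± 7.83 CPM in experiment 2 (adjusted p = 0.427). Kcnk5 (TASK-2) rose from 3.2 ± 0.531 to 7.77 ± 3.92 CPM, from 5.11 ± 1.06 to 9.5 ± 1.15 CPM and, in the double knockout against Sav1 KO, from 4.06 ± 0.367 to 8.53 ± 1.9 CPM. The calls were lost without LIN9 wt library 1 or 3 (1.19 to 1.25) in experiment 1, without control library 1 or 2 or LIN9 KO library 2 or 3 (0.72 to 0.85) in experiment 2 and without double knockout library 2 (0.89) in the third. Kcnk1 (TWIK-1) rose in the same comparisons at means of 0.901 and 1.85 CPM in experiment 1 and 0.791 and 2.51 CPM in experiment 2. Its calls were lost without LIN9 wt library 1 or 2 or 3 or LIN9 KO library 2 or 3 (0.91 to 1.14) in experiment 1, without control library 1 or 2 or 3 or LIN9 KO library 2 or 3 (1.44 to 1.78) in experiment 2 and without Sav1 KO library 1 or 2 or double knockout library 2 or 3 (1.21 to 1.67) in the third. Kcnk4 (TRAAK) fell in experiment 1, from 1.84 ± 0.646 to 0.497 ± 0.321 CPM, a call lost without LIN9 wt library 2 (-1.58).

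Of the calcium- or sodium-activated channels, Kcnn2, the SK2 pore opened by calcium, fell from 27.4 ± 3.84 to 15.1 ± 1.56 CPM and from 39.3 ± 10.4 to 22.6 ± 5.94 CPM (adjusted p = 4.97e-04 and 0.0119), a call lost in experiment 2 without control library 3 (-0.69). In the double knockout against Sav1 KO its log2 fold change was -0.58 (adjusted p = 0.0504). Kcnt2, the sodium-activated pore Slick, rose in all 3 comparisons, from 2.58, 1.69 and 2.08 CPM to 5.31, 3.67 and 4.32 CPM in experiment 1, and read 2.0, 1.71 and 4.15 CPM in controls, 1.97, 13.4 and 13 CPM in LIN9 KO, 2.02, 2.7 and 2.39 CPM in Sav1 KO and 13, 18.3 and 16.7 CPM in double knockout libraries of experiment 2. LIN9 KO library 1 of experiment 2 stayed at the control level, and the call there (log2 fold change 1.83, adjusted p = 0.0439) was lost without control library 1 or 2 or LIN9 KO library 2 or 3 (1.43 to 1.65). Kcnn4, the calcium-activated channel of red blood cells and leukocytes, rose in experiment 1, with 2.06, 2.32 and 1.87 CPM in LIN9 wt and 9.76, 8.7 and 4.42 CPM in LIN9 KO ventricles, without overlap (log2 fold change 1.86, standard error 0.294, adjusted p = 4.41e-04). It did not pass in experiment 2 (2.33, 2.06 and 1.38 CPM in controls and 5.92, 1.64 and 4.1 CPM in LIN9 KO, adjusted p = 0.149), where the groups overlapped, or in the double knockout against Sav1 KO (adjusted p = 0.265). The log2 fold changes of these comparisons were 0.99 and 0.86. The erythroid markers summed to 6293 to 8694 CPM and 30828 to 81193 CPM in LIN9 wt and LIN9 KO of experiment 1, and to 3123 to 3981 CPM and 18791 to 34312 CPM in the controls and LIN9 KO of experiment 2. The macrophage markers summed to 88.5 to 95.2 and 176 to 189 CPM in experiment 1, and the part of both lists in this result was not tested. Kcnmb2, a beta subunit of the BK channel, rose in the double knockout against Sav1 KO from 0.791 ± 0.202 to 3.03 ± 1.34 CPM, a call lost without Sav1 KO library 1 or 2 or double knockout library 2 (1.45 to 1.79).

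Partners of these channels outside the rule, 38 genes for regulators, anchors and other carriers of excitation, were mostly lower where they passed. Of 36 tested, 12 were lower and 3 higher in experiment 1, 12 lower and 3 higher in experiment 2, and 11 lower and 2 higher in the double knockout against Sav1 KO, beside 9.78%, 10.5% and 11.6% of all genes lower and 11.1%, 12.8% and 11.8% higher. Only 1 partner was higher in experiment 1 without LIN9 wt library 1 or 3 or LIN9 KO library 1, and in DESeq2. The same held in experiment 2 without control library 2 or LIN9 KO library 2, and in a fit of only the 6 libraries of both groups. In these fits 10 to 12 partners were lower. Cav3, the muscle caveolin of membrane invaginations, fell by 1.17 on the log2 scale in experiment 1 and by 1.15 in experiment 2. Gja1, the gap junction protein connexin 43, fell by 0.95 and 0.93, and Fgf13, an intracellular modulator of Nav channels, by 1.08 in both, though not past the threshold in the double knockout against Sav1 KO (-0.52, adjusted p = 0.0805). Rrad, a small GTPase that restrains L-type channels, fell by 0.81 and 0.56. Gem and Rem1, GTPases of the same family, rose by 0.46 and 0.50 and by 0.50 and 0.52 in these experiments. Both were close to the threshold (adjusted p = 0.0488 and 0.0403 for Gem, 0.0394 and 0.0432 for Rem1). In the fits above with 1 higher partner, at most 1 of Gem, Rem1 and Dpp6 passed. In the double knockout against Sav1 KO, Gem did not pass (0.27, adjusted p = 0.32) and Rem1 rose by 0.91 (adjusted p = 0.00188). Dpp6, an accessory subunit of Kcnd pores, rose by 1.62, 2.08 and 2.93 in the 3 comparisons, in which Kcnd2 fell.

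Knockout of Sav1 changed no member past the threshold. Of 102 members, 0 passed in Sav1 KO against control, with 8 at an unadjusted p under 0.05 in edgeR (DESeq2 gave 0 and 2), and 0.017% of all genes passed (0.00566% lower). In the double knockout against LIN9 KO, 0 passed with 10 at an unadjusted p under 0.05 (DESeq2 0 and 9), and 0.0113% of all genes passed. The difference between these Sav1 effects, an interaction term, gave 0 with 4 at an unadjusted p under 0.05 (DESeq2 0 and 5), and 0% of all genes. At an unadjusted p under 0.05 there were 3.92%, 11.8% and 6.54% of all genes in these 3 tests. The median log2 fold changes of the members were -0.03, 0.03 and 0.06. The smallest adjusted p of a member was 0.691, 0.189 and 0.483. In simulated counts these 3 tests recovered 12.5%, 10.8% and 3.08% of genes changed by 0.5 on the log2 scale. At a change of 1 they recovered 65.2%, 63.1% and 39.4%. Counts of 0 thus do not show that Sav1 had no effect on members. In the double knockout against control, which shares the controls with the LIN9 KO comparison, 27 members passed (26.5%, against 20.6% of all genes), 16 higher and 11 lower. Scn3b, Cacna1e and Cacng6 had log2 fold changes of 3.56, 3.04 and -2.20 there, beside 3.28, 3.13 and -2.51 in LIN9 KO against control.

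The remaining members gave few counts or none. In all 18 libraries 15 members were at 0, and 10 of these are among the 11 members whose exons lie wholly under the spans of other genes, where reads may have been dropped as ambiguous. Kcnj15 was the exception. Of the transcripts that are not subunits by name, Kcnab3os, Kcnmb4os1, Kcnq1ot1 and Kcnrg were at 0, while Kcnd3os and Kcnmb4os2 read 0.314 and 0.797 CPM in LIN9 wt ventricles of experiment 1 and did not pass in any comparison in which they were tested. Members within 20 Mb of a floxed gene were Kcnh1, Kcnj9, Kcnj10 and Kcnk2 on chromosome 1, 8.27 to 11.5 Mb from Lin9, and Kcnh5 on chromosome 12, 4.91 Mb from Sav1. None of these that had enough counts to be tested passed in any comparison.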

How the data were processed

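The deposited matrices hold raw counts, whole reads for each Ensembl gene. Per the study's methods and the submitters' processing notes, the authors mapped reads to mm10 with TopHat2 2.1.0 and Bowtie2 under default settings, brought libraries down to the smallest number of mappable reads and counted with summarizeOverlaps. Overlap mode and strandedness are not given in the sources used here. Where reads over whole gene spans count, intronic reads add to long genes, and genes nested in others lose reads.

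Each matrix held 48713 rows, of which 4 repeated identifiers were kept once. Genes with a mean count above 1 received TMM factors and entered the robust quasi-likelihood test of edgeR (4.0.16, R 4.3.3), with Benjamini-Hochberg adjustment. Experiment 1 was fitted on its 6 libraries and experiment 2 as 1 fit of 12 libraries with contrasts of group means, including the interaction. Log2 fold changes are those of the fit, with its default prior count of 0.125, and the log2 CPM of the pairing check used a prior count of 2. The procedure was tested on simulated counts. The alternatives were DESeq2 (1.42.0), its size factors in edgeR, filterByExpr, no filter, the replicate number as a block, only the 6 libraries of both groups, and each library left out in turn.

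The members and gene lists were chosen with earlier results of these data known. Genes named are members with a well known part in cardiac excitation whatever their values, members past the threshold in the same direction for LIN9 KO in both experiments, the 10 largest changes per comparison without overlap at 1 CPM or more, and members that are not subunits by name. Cacna2d2, Kcnip1, Kcnn3, Scn1a, Cacng4 and genes named for a position or for levels of 0 were named after their values were seen. Some members that the rule selects are not reported here by name, though counts, medians and sums over all members include them. Same-numbered libraries did not deviate together in every pair (correlations of 0.0267 to 0.0873 in experiment 1 and 0.0891 to 0.393 for LIN9 KO and controls of experiment 2, against a minimum of 0.1), so replicate numbers were not taken as pairs. Replicates differed by unequal amounts. The chi-square per gene of a pair of libraries, near 1 for counting noise alone, was 1.22 for control libraries 2 and 3 of experiment 2. It was 1.39 to 1.98 among Sav1 KO libraries, so that these pairs were close to counting noise. Among LIN9 KO libraries it was 16.2 to 26.2 in experiment 1 and 6.28 to 21.5 in experiment 2. Gene positions and exonic lengths came from GENCODE M21 on mm10, and promoter windows from RefSeq. The deposited tables of the authors' own fold changes and p-values were not used, 4 ChIP-seq samples were left out, and 0 columns of per-sample values were left unused.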

Additional observations from a re-analysis of the deposited data

Results flagged for a closer look

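For 3 channel genes every Sav1 KO library moved one way from the LIN9 wt controls and every double knockout library the other way from LIN9 KO. The 3 were picked for this pattern, and the share of all genes that show it is not given here, so it is no result about channel genes. The interaction term of edgeR's quasi-likelihood test tested this difference, and with Benjamini-Hochberg adjustment none of the 3 passed. Of all 17675 genes tested, 0 passed. For Kcnn3, a small-conductance calcium-activated channel, it was 1.43 on the log2 scale (standard error 0.347, adjusted p = 0.483), with 12.6, 16.45 and 9.34 CPM in controls, 6.06, 8.10 and 6.82 CPM in Sav1 KO, 9.86, 6.89 and 10.1 CPM in LIN9 KO and 13.3, 12.3 and 13.9 CPM in double knockout libraries. For Cacng4, a Cav gamma subunit, it was -0.99 (standard error 0.567, adjusted p = 0.808), at levels between 1.76 and 3.75 CPM. For Scn1a, a neuronal Nav pore, it was -4.20 (standard error 1.48, adjusted p = 0.678), at levels between 0 and 1.31 CPM.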

How the results depend on the processing

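No call of a gene singled out by the naming rule changed sign under any alternative run. The medians of all members in Sav1 KO against control, the double knockout against LIN9 KO and the interaction, all near 0, took either sign. The number of members called was 44 in experiment 1, and 31 to 40 with 1 library left out. For LIN9 KO in experiment 2 it was 34, and 22 to 33 with 1 left out (22 without LIN9 KO library 2), for the double knockout against Sav1 KO 32 and 23 to 30, and for the double knockout against control 27 and 16 to 28 (16 without double knockout library 2). For Sav1 KO it stayed 0, except for 1 lower member in a fit of only the 6 libraries of both groups, for the double knockout against LIN9 KO it was 0 to 4 with 1 left out (4 without LIN9 KO library 3) and 3 without the filter on low counts, where 2.14% and 1.3% of all genes passed, and for the interaction 0 to 1. The replicate block was run although not every same-numbered pair of libraries reached the minimum correlation. Control library 1 and LIN9 KO library 1 of experiment 2 did, at 0.393. With this block, 51, 38, 35, 28, 0, 0 and 0 members passed in experiment 1, LIN9 KO in experiment 2, double knockout against Sav1 KO, double knockout against control, Sav1 KO, double knockout against LIN9 KO and the interaction, beside 25.3%, 24.7%, 25.4%, 22.8%, 0.0113%, 0.475% and 0% of all genes. Of the genes singled out by the naming rule that passed, 23 of 37, 18 of 29, 16 of 25 and 12 of 23 held under every alternative in the first 4 of these, and the cause of the losses was not tested. Depth limited experiment 2, which had 102 members above the filter against 115.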
